A study of Mus musculus with 4 samples.

Results

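The replication-dependent histone genes of the mouse lie together in clusters, and they were taken here as the rows of the deposited gene table whose symbol begins with *Hist1h*, *Hist2h*, *Hist3h* or *Hist4h*. They numbered 53 of the 18373 genes in the table. By protein, 5 encode linker histone H1, 15 encode H2A, 14 encode H2B, 9 encode H3 and 10 encode H4. By place, 41 belong to the Hist1 cluster on chromosome 13, 9 to Hist2 on chromosome 3, 2 to Hist3 on chromosome 11 and 1 to Hist4 on chromosome 6. Other annotated genes of these clusters, among them *Hist1h3b*, *Hist1h3c* and *Hist2h3b*, have no row in the table. The sums by type and by cluster given below do not include them.

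RNA-seq was performed on primary liver sinusoidal endothelial cells (LSEC), the fenestrated endothelium of the liver sinusoid, isolated from livers of balb/c mice aged 8 weeks. The cells were cultured for 24 h and then held for 48 h with an siRNA, either the control NC or si*Airn* against the imprinted long noncoding RNA *Airn*, and the labels place both groups at day 3. Each group had 2 libraries, and the titles of both si*Airn* libraries name siAirn1. The treatment protocol in the labels speaks of 2 separate si*Airn*, so the libraries of this group may hold different siRNAs, and their spread may include that difference. The titles call the libraries biological replicates, but no label says that they came from separate mice, so the p-values measure the spread between these libraries, which may be technical. The question was which transcripts differ in LSEC after silencing of *Airn*.

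The core histones H2A, H2B, H3 and H4 form the nucleosome, and H1 binds the DNA between nucleosomes. Most genes of the clusters have no intron and are transcribed mainly in S phase, when newly replicated DNA has to be packaged. Their mRNAs end in a conserved stem-loop instead of a poly(A) tail, and this stem-loop, held by the protein SLBP, controls their processing, translation and decay. Cells that have left the cycle rely more on variant histones such as H3.3 and H2A.Z, which are encoded elsewhere and carry poly(A) tails.

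The libraries held between 17308382 and 18371959 estimated counts. *Airn* itself had 7 and 3 counts in the NC libraries against 11 and 9 under the si*Airn* label. The label thus did not go with a lower count of its target, and the ratio was 1.97 (95% exact binomial interval 0.88 to 4.71, counting error only). *Ezh2*, the histone methyltransferase that the study linked to *Airn*, had a log2 fold change of 0.11 (SE 0.08, adjusted p = 0.388, edgeR), and *Klf2*, an endothelial transcription factor, one of -0.19 (SE 0.12, adjusted p = 0.284, edgeR). The summed level of 15 LSEC markers was 4588 and 4597 CPM (counts scaled to a common library total) in NC. Under the si*Airn* label it was 3418 and 3208 CPM. Of the 14 tested, 11 were called lower (adjusted p under 0.05, edgeR), beside 8.56% of all genes tested. None of the 15 was at 0 in a whole group. Of the macrophage markers, 9 of 15 tested were called lower, beside the same 8.56%, and 7 were called by DESeq2. With a correction for transcript length 4 were called lower, and with length and GC content 3. Their sums were 316 and 398 CPM in NC and 244 and 210 CPM under the si*Airn* label. Of the stellate cell markers 4 of 13, and of the hepatocyte markers 2 of 13, were called higher, beside 8.27% of all genes tested. None of the genes on these 3 lists was at 0 in a whole group. The part of these cell type markers in the histone values given next was not tested.

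The stem-loop was sought on the sense strand after the coding sequence of each gene's longest transcript in GENCODE M21 (GRCm38). It was present in 37 of the 53 genes, each time within 100 bases of the coding sequence, against 9 of 14329 other coding genes of the table (0.063%). In 11 of the 16 genes without it, the annotated transcript ends within 50 bases of the stop. The sequences shown are those of the genes on which the values turn, from the 5′ to the 3′ end, with the 16 bases of the stem-loop in capitals. The commonest form was that of *Hist1h1c*, found in 21 genes of types H1, H2A, H2B and H3. A form with AA in place of CA after the run of T, shown for *Hist1h2bk*, was found in 5 genes. The forms with a CC or TC stem were found in H4 genes alone, and *Hist1h4i* and *Hist1h4h* carry the CC stem.
*Hist1h1c* (chr13:23739512-23739527, plus strand): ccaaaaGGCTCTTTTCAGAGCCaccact
*Hist3h2a* (chr11:58955172-58955187, plus strand): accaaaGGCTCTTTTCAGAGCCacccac
*Hist2h2aa1* (chr3:96246032-96246047, plus strand): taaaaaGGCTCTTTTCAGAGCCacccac
*Hist2h2aa2* (chr3:96239784-96239799, minus strand): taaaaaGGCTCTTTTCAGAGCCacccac
*Hist1h2bk* (chr13:22036300-22036315, plus strand): accaaaGGCTCTTTTAAGAGCCactaaa
*Hist1h4h* (chr13:23531458-23531473, plus strand): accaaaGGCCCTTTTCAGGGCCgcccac
*Hist1h4i* (chr13:22040966-22040981, minus strand): cttaaaGGCCCTTTTTAGGGCCaccaca

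Upstream, 48 of the 53 genes had an entry among RefSeq promoters (GRCm38.p6), a window from 250 bases before to 50 bases after the start. The octamer ATTTGCAT, which POU2F1 binds, was sought on both strands and was present in 11 of the 48 (22.9%), against 1.75% of all 27025 promoters of this length. These 11 were 6 of 15 H2A and 5 of 12 H2B genes. The letters CCAAT were present in 42 of the 48 (87.5%) and in 37.9% of all promoters, and among H4 genes in 3 of 9. The letters TATAAA were present in 52.1% against 14.2%, and the H1 box AAACACA in 4 of 5 H1 genes against 7.14% of all promoters. Of the 48 windows, 12 overlapped the window of another histone gene, so these are not all separate sequences. The 150 bases before the start are shown for the best covered genes with an entry, with matches to these letters on either strand in capitals, to show how the upstream sequences of an H1 gene and of H2A genes differ.
*Hist1h1c* (chr13:23738657-23738806, plus strand): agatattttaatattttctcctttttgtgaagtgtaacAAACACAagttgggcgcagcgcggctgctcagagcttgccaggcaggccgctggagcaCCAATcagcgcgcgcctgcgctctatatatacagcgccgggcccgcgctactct
*Hist3h2a* (chr11:58954535-58954684, plus strand): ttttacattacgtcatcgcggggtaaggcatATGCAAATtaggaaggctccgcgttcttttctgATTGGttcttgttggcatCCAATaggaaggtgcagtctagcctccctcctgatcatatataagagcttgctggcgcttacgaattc
*Hist2h2aa1* (chr3:96245347-96245496, plus strand): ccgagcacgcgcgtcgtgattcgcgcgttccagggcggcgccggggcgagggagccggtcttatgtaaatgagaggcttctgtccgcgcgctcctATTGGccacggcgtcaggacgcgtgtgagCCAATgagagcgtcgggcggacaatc

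The clustered histone genes together took a small part of each library. Their summed counts were 1444 and 1572 in NC against 1567 and 1708 under the si*Airn* label, or 0.0083% to 0.0097% of a library. Of these counts, 90.9% fell on 5 genes, namely *Hist1h2bc*, *Hist1h1c*, *Hist2h2aa1*, *Hist3h2a* and *Hist2h2be*. Of the 53 genes, 39 never reached 10 counts in any library, and *Hist1h2bl* had 0 counts in all 4. By type, H2B took 40.7% of the counts, H1 33.3%, H2A 22.6%, H4 2.1% and H3 1.26%. How RNA was selected for the libraries is not given in the sources used here, so a low level of an mRNA without a poly(A) tail and its poor capture cannot be told apart.

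**Figure D1:**
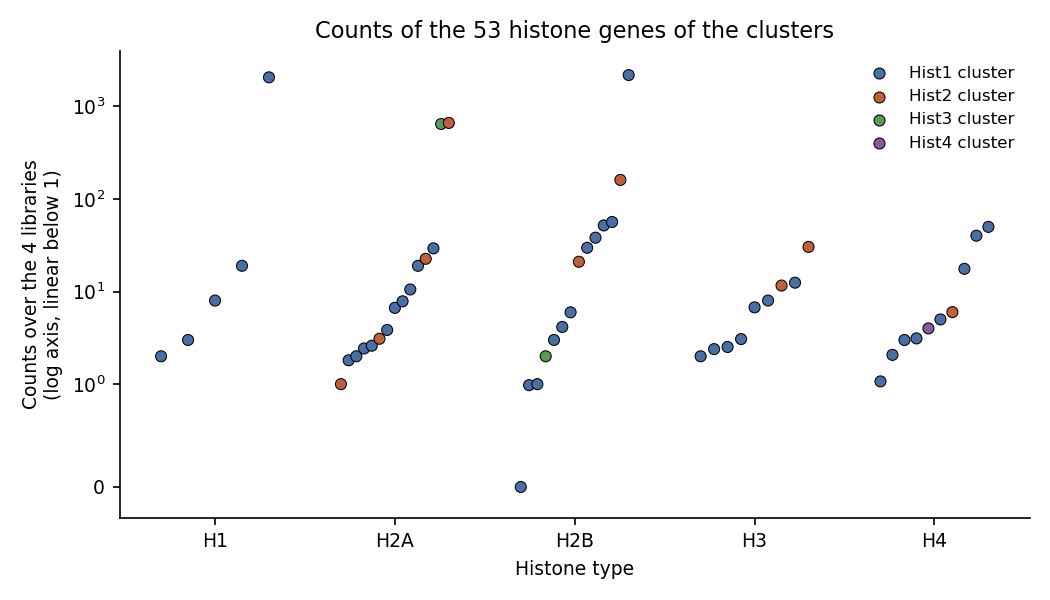
Counts of each of the 53 histone genes summed over the 4 libraries, on a log axis that is linear below 1, by histone type, with the colour giving the cluster. In H1, 1 gene stands above the rest, and the largest H3 and H4 totals, 30.4 and 50.0, are below those of the leading H1, H2A and H2B genes.

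On the per-length scale (FPKM, as deposited by the authors), *Hist1h2bc* was the highest, between 43.8 and 60.7 in the 4 libraries. *Hist3h2a* (20.4 to 26.5), *Hist1h1c* (19.7 to 24.7) and *Hist2h2aa1* (19.6 to 23.5) came next, and their ranges overlap. *Hist1h4i*, with the highest mean FPKM of the H4 genes, was at 1.61 to 3.42, and *Hist2h3c2*, that of the H3 genes, at 0 to 1.51. The 9 H3 genes summed to between 1.99 and 3.16 FPKM per library, whereas *H3f3a* and *H3f3b*, which encode the variant H3.3, summed to between 545 and 588. The H2A genes of the clusters summed to between 46.7 and 51.5 FPKM and 6 H2A variant genes to between 251 and 307. For H1 the sums were 20.3 to 25.5 in the clusters and 67.5 to 85.1 for *H1f0* and *H1fx*. In FPKM, the variants thus exceeded the clustered genes of the table in every library for H1, H2A and H3. The selection of RNA is not given. A difference in level and a difference in capture of mRNAs with and without poly(A) tails cannot be told apart here.

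Of the 5 genes with most counts, 4 have annotated transcripts that run far past the stop codon. The transcript extends over 700 bases beyond the stop in 16 genes, which had a median of 15.7 counts over the 4 libraries, against 3.12 in the other 37. Their totals ran from 2.43 to 2185 counts, so a long transcript did not go with a high count in every gene. These counts are not scaled to length, and a longer transcript can have more counts at the same level. On the per-length scale *Hist2h2be* was at 0.75 to 1.12 FPKM, whereas *Hist1h2bc*, *Hist3h2a* and *Hist1h1c* were among the highest of the clusters. A polyadenylation signal (AATAAA or ATTAAA on the sense strand) lies in the last 40 bases of 16 transcripts, with a median of 14.6 counts against 5.0 in the rest. *Hist1h1c* has 840 bases and *Hist3h2a* 1643 bases after the stem-loop, *Hist2h2be* has 2192 bases after the stop and no stem-loop match, and the transcript of *Hist1h2bc* has 2 exons and no stem-loop. *Hist2h2aa1* has 35 bases after the stem-loop, and neither it nor *Hist1h2bc* has such a signal. These are features of the annotation. The ratio of counts to FPKM gives *Hist3h2a* a length of 388 bases in the deposited table, against 2146 in GENCODE, so the counts of some genes cover only part of the transcript described here.

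Of the 13628 genes that passed the filter on low counts, 2294 (16.8%) were called at an adjusted p under 0.05 (quasi-likelihood test of edgeR, adjusted after Benjamini and Hochberg over all genes tested), 1127 higher (8.27%) and 1167 lower (8.56%) in the libraries labelled si*Airn*. Leaving out NC replicate 1 left 40 calls, and leaving out NC replicate 2 left 0. Of the 53 histone genes 11 passed the filter, and 1 of them was called higher and none lower, with 1 higher and 1 lower at an unadjusted p under 0.05. DESeq2 called none, but gave no adjusted p for 7 of the 11, *Hist2h2aa2* among them. By a fold change over 1.4 with an unadjusted p under 0.05, the rule of the study's methods, 1 of 11 passed, against 9.96% of all genes tested. The groups did not overlap in 4 of the 11 genes, against 62.7% of all genes tested. The 11 log2 fold changes, 6 above and 5 below 0, had a median of 0.08, and the median of all genes tested was 0.00.

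*Hist1h1c* (chr13:23738808-23740367), which encodes the linker histone H1.2, had 503 and 491 counts in NC against 542 and 528 under the si*Airn* label. In CPM these were 29.4 and 27.1 against 30.0 and 29.9. The groups lie side by side without overlap, and the log2 fold change was 0.08 (SE 0.09, 95% interval -0.12 to 0.29, adjusted p = 0.534, edgeR).

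*Hist1h2bc* (chr13:23684199-23692908), which encodes a core H2B, had 463 and 537 counts in NC against 538.5 and 646 under the si*Airn* label, or 27.0 and 29.7 against 29.8 and 36.5 CPM. The higher NC library nearly meets the lower si*Airn* library, and si*Airn* replicate 2 is the highest of the 4. The log2 fold change was 0.22 (SE 0.12, 95% interval -0.06 to 0.50, adjusted p = 0.229, edgeR), and it was 0.07 without si*Airn* replicate 2. With the replicate number as a block the adjusted p was 0.0458, and with a correction for transcript length the log2 fold change was 0.41 (adjusted p = 0.0602). Of the 50-base windows of its coding sequence, 97.6% also occur in other genes, and its counts were not whole numbers in any of the 4 libraries.

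*Hist3h2a* (chr11:58954685-58956830), an H2A gene, had its lowest values in both libraries labelled si*Airn*. It had 180 and 178 counts in NC against 151 and 139 under the si*Airn* label, or 10.5 and 9.85 against 8.33 and 7.83 CPM. The groups do not overlap, the log2 fold change was -0.33 (SE 0.13, 95% interval -0.64 to -0.01), and the unadjusted p of 0.0444 did not pass adjustment over all genes (adjusted p = 0.136, edgeR). With the length correction it was -0.14 (adjusted p = 0.557). All 341 windows of 50 bases in its coding sequence also occur in other annotated genes, overlapping ones included, and its counts were not whole numbers in any of the 4 libraries.

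*Hist2h2aa1* (chr3:96245497-96246082), another H2A gene, had 149 and 188 counts in NC against 159 and 168 under the si*Airn* label, or 8.70 and 10.4 against 8.78 and 9.52 CPM. The si*Airn* values lie between the NC values (log2 fold change -0.06, SE 0.15, adjusted p = 0.799, edgeR). *Hist2h2be* (chr3:96221119-96223738), an H2B gene that shares no 50-base window with another gene, had 33 and 41 counts in NC against 37 and 50 under the si*Airn* label. The groups overlap, with a log2 fold change of 0.21 (SE 0.30, adjusted p = 0.650, edgeR).

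**Figure D2:**
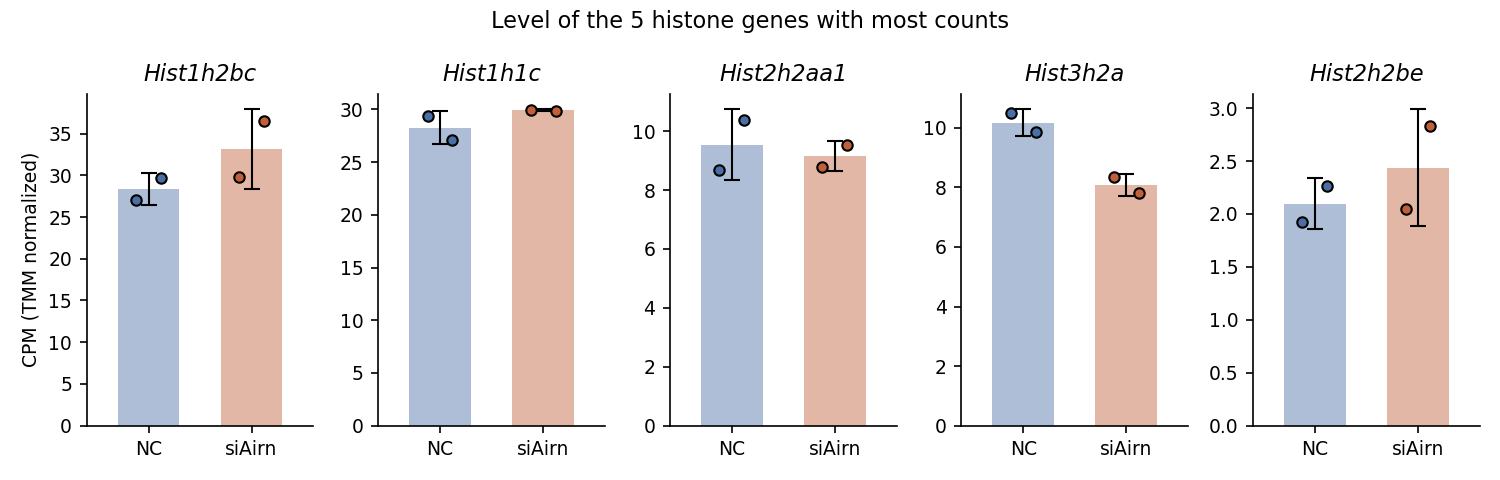
CPM, scaled with TMM factors, of the 5 histone genes with most counts in the 2 NC and 2 si*Airn* libraries, each panel on its own axis from 0. Bars are means, error bars SD and points single libraries; *Hist3h2a* is at 7.83 and 8.33 under the si*Airn* label, below its NC values of 9.85 and 10.5, and *Hist2h2aa1* and *Hist2h2be* overlap.

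The gene called higher was *Hist2h2aa2* (chr3:96239749-96240276), which lies near *Hist2h2aa1* on the opposite strand. It had 0 counts in both NC libraries and 10.9 and 11.7 under the si*Airn* label (adjusted p = 0.0217, edgeR). Against a floor of 3 counts over the NC group the ratio was 7.42. This is no lower bound, since the floor leaves out reads that may have been assigned to *Hist2h2aa1*. *Hist2h2aa2* passed the filter only through the libraries in which it is high. Its p-value is therefore conditional on the difference, and the call is given as a description. The reads were 50 bases long, and all 479 windows of this length in its annotated transcript also occur in *Hist2h2aa1*, as do its stem-loop and flanks. A read from *Hist2h2aa2* can therefore not be told from one of *Hist2h2aa1* by sequence, and the estimated counts divide such reads between the copies. Annotated antisense transcripts also overlap both genes, and whether counting used the strand is not given in the sources used here. The sum of both genes was 149 and 188 counts in NC against 170 and 180.0 under the si*Airn* label. In CPM the sums were 8.70 and 10.4 against 9.39 and 10.2. The groups of the sum overlap, and in a fit with the pair as 1 row, chosen after seeing the data, its log2 fold change was 0.03 (SE 0.15, adjusted p = 0.889, edgeR). Without NC replicate 1 the adjusted p of *Hist2h2aa2* was 0.108 and without NC replicate 2 it was 0.137 (edgeR), with fitted log2 fold changes of 6.54 and 6.52 against 6.53 with all 4 libraries, values that depend on the prior count. Those fits called 40 and 0 genes in all, so these p-values say nothing about this gene in particular. Without either si*Airn* library the gene did not pass the filter.

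Counts were also read as sums in 3 other pairs of similar genes. *Hist2h3c1* and *Hist2h3c2*, the H3 genes beside the H2A pair, have coding sequences whose 50-base windows all occur in other annotated genes. Over the whole transcript, *Hist2h3c1* shares 34.7% of its windows with *Hist2h3c2*, and *Hist2h3c2* shares 63.5% with *Hist2h3c1*. *Hist2h3c1* had 11.6 counts in NC replicate 1 and 0 in the other 3 libraries, and *Hist2h3c2* had 0 in NC replicate 1, 11.4 in NC replicate 2, and 5 and 14 under the si*Airn* label. Their sum was 11.6 and 11.4 against 5 and 14, so the groups overlap. Among the values that could be fitted for the 11 histone genes tested, leaving out 1 library moved *Hist2h3c2* most. Its log2 fold change went from 0.77 (adjusted p = 0.655, edgeR) to between -0.19 and 6.25. The 6.25 is that without NC replicate 2, where the remaining NC library is at 0, so it depends on the prior count. *Hist2h2aa2* could not be fitted without either si*Airn* library. *Hist1h2ao* and *Hist1h2ap* summed to 16.9 and 5.7 counts in NC against 7.88 and 5.52 under the si*Airn* label, while *Hist1h2ap* alone was at 0 in 1 library of each group. *Hist1h2bq* and *Hist1h2br*, both with counts in every library, summed to 17 and 30.8 against 14.1 and 24.3.

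**Figure D3:**
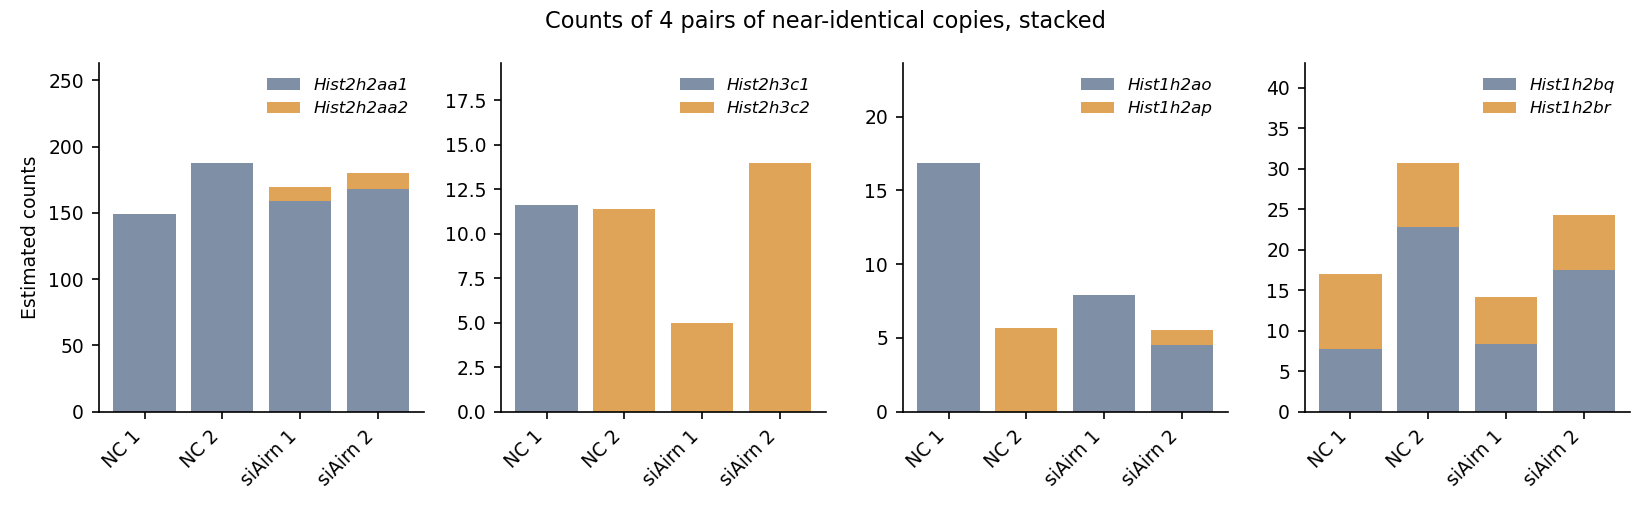
Estimated counts of 4 pairs of similar histone genes in each library, stacked so that the full bar is the sum of the pair. Each panel has its own axis from 0. *Hist2h2aa2* adds 10.9 and 11.7 counts in the libraries labelled si*Airn* and 0 in NC, on *Hist2h2aa1* counts of 149 to 188, and the counts of the H3 pair fall on one copy in each library.

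Across the clusters, over 50% of the 50-base windows were shared with other annotated genes, overlapping ones included, in 25 of the 53 genes. Counts per gene that are not whole numbers, which can arise when reads are divided between genes, were present in 33 of them (62.3%), against 28.7% of all genes in the table. The other 4 genes tested, *Hist1h2be*, *Hist1h2bk* and *Hist1h2bq* of H2B and *Hist1h4i* of H4, never exceeded 22.8 counts. *Hist1h4i* had 8 and 17 counts in both groups (log2 fold change -0.01, SE 0.57, adjusted p = 0.990, edgeR). *Hist1h2bk* had 9.54 and 5.81 counts in NC against 8.33 and 14.5 under the si*Airn* label, *Hist1h2bq* 7.77 and 22.8 against 8.40 and 17.5, and *Hist1h2be* 13.2 and 14.2 against 9.03 and 15.4. The groups overlap in these 4 genes, and their adjusted p-values ran from 0.583 to 0.990 (edgeR). Standard errors of the log2 fold change were 0.46 to 1.21 in the 6 genes tested outside the 5 leading ones and 0.09 to 0.30 in the 5, and the change of *Hist3h2a*, -0.33 with an SE of 0.13, was not called.

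**Figure D4:**
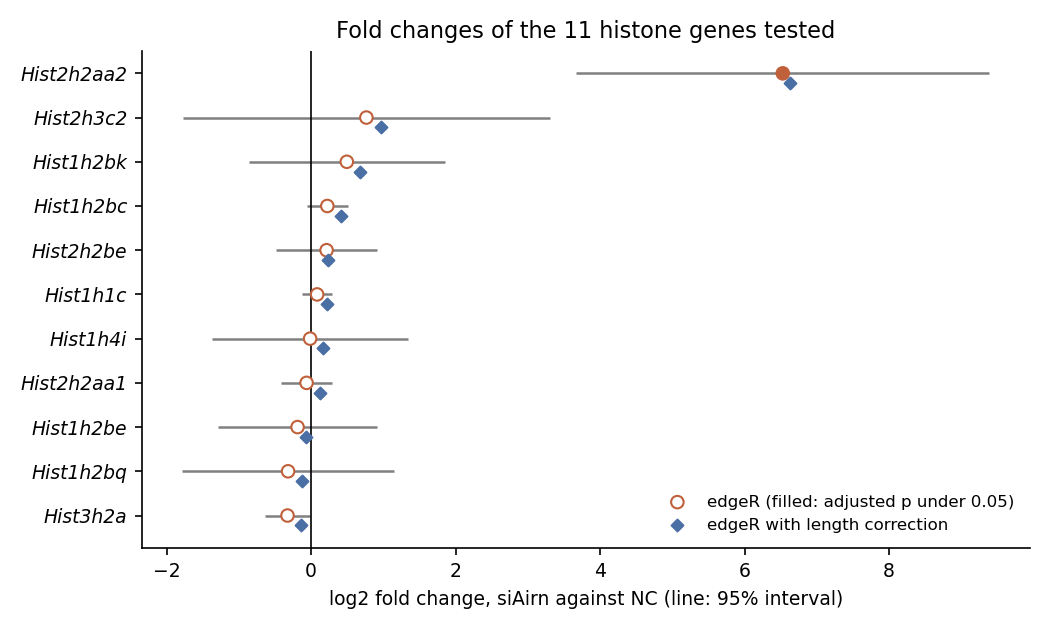
Log2 fold change of the 11 histone genes tested, libraries labelled si*Airn* against NC, from edgeR (circles, filled at an adjusted p under 0.05, with 95% intervals) and from the same fit with a correction for transcript length (diamonds). Apart from *Hist2h2aa2*, whose NC counts are 0, the intervals of 9 genes include 0 and that of *Hist3h2a* ends at -0.01.

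The 42 genes that did not pass the filter had at most 16.9 counts in any library. *Hist1h1e*, which encodes H1.4, had 1 and 5 counts in NC against 7 and 6 under the si*Airn* label. *Hist1h1d*, which encodes H1.3, had 0 and 2 against 3 and 3. Among H3 genes, *Hist1h3d* had 2 and 1.48 against 5 and 4. Among H4 genes, *Hist1h4h* had 8 and 16.7 against 8 and 7.48, and *Hist1h4a* had 0 and 2.21 against 9 and 6.39. The mean CPM was higher in the libraries labelled si*Airn* for 26 of the 42 and lower for 15. Many of these means rest on a few counts and the genes share reads, so the split is a description only. The split among other genes that did not pass the filter was not counted. A total of 8 of the 53 genes were at 0 in both NC libraries and not in both si*Airn* libraries, and 7 the reverse. By counting error alone, a count of 0 allows up to 3 counts, which is between 0.163 and 0.173 CPM in these libraries before TMM scaling. Reads assigned to similar genes are not covered by this floor, so absence of these transcripts is not shown.

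By type, the H1 sum was 29.5 and 27.5 CPM in NC against 30.5 and 30.5 under the si*Airn* label, and that of H2A 20.4 and 21.3 against 19.3 and 19.2. Both pairs of groups lie apart by less than 2 CPM, in opposite directions. The H2B sum was 31.9 and 35.0 against 34.1 and 43.1, that of H3 1.11 and 0.962 against 0.927 and 1.47, and that of H4 1.28 and 2.10 against 1.83 and 2.21. These 3 overlap. By cluster, Hist1 was at 62.0 and 63.5 against 66.0 and 74.2 CPM and Hist3, nearly all of it *Hist3h2a*, at 10.5 and 9.85 against 8.33 and 7.94, while Hist2 overlapped at 11.8 and 13.5 against 12.3 and 14.2. All 53 genes summed to 84.3 and 86.9 CPM in NC against 86.7 and 96.5 under the si*Airn* label, which overlap, with a ratio of 1.07 (95% exact binomial interval 1.02 to 1.12, counting error only). The log2 ratio of this sum was 0.10, and 0.02 without si*Airn* replicate 2. That of H2B was 0.21, and 0.03 without the same library.

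Without the 5 leading genes, the other 48 summed to 116 and 137 counts in NC against 140 and 177 under the si*Airn* label, and the groups do not overlap in counts or in CPM. Without *Hist2h2aa2* as well, the counts were 116 and 137 against 129 and 165, which overlap, also in CPM. The 4 lesser H1 genes summed to 3 and 7 counts against 10 and 12, a ratio of 2.17 with a counting interval of 0.985 to 5.13. Sums over genes were not tested, since the genes share reads and each group has 2 libraries. In bulk RNA, a change in the number of cells of a kind and a change in mRNA per cell cannot be told apart.

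Fold changes in these libraries followed transcript length over all genes tested. Among genes with a length under 500 bases in the table the median log2 fold change was -0.23, and it was -0.19 from 500 to 1000 bases, -0.11 from 1000 to 2000, 0.01 from 2000 to 4000 and 0.18 over 4000. Most clustered histone genes are short, with lengths by the table of 283 to 2541 bases in the 9 genes where it could be read. With the length correction all 11 log2 fold changes moved up. That of *Hist1h1c* went from 0.08 to 0.22 (adjusted p = 0.183) and that of *Hist2h2aa1* from -0.06 to 0.13 (adjusted p = 0.550), while *Hist2h2aa2* was still the one gene called. The part of this length trend in the values of single genes was not tested.

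Among the variant histone genes outside the clusters, calls were made in one direction. Of 11 tested, 4 were called lower and none higher (edgeR), beside 8.56% and 8.27% of all genes tested, with 6 lower and none higher at an unadjusted p under 0.05 and 2 called by DESeq2, and the median log2 fold change was -0.18. *H2afz* and *H2afv*, which encode forms of H2A.Z, fell by 0.30 (SE 0.08, adjusted p = 0.0480) and 0.37 (SE 0.09, adjusted p = 0.0379) on the log2 scale. *H2afy*, which encodes macroH2A1, fell by 0.27 (SE 0.06, adjusted p = 0.0279), and *H1f0*, the linker histone of differentiated cells, by 0.28 (SE 0.07, adjusted p = 0.0432). With the length correction none of the 4 passed (adjusted p 0.0805 to 0.262). The log2 fold changes were then -0.23 for *H1f0*, -0.20 for *H2afy*, -0.23 for *H2afv* and -0.13 for *H2afz*, and the median of the list was -0.07. *H3f3a* and *H3f3b* had log2 fold changes of -0.18 (adjusted p = 0.0929) and -0.08 (adjusted p = 0.365), *H2afx* one of -0.18 (adjusted p = 0.307), *H2afj* one of -0.16 (adjusted p = 0.129) and *H2afy2* one of 0.11 (adjusted p = 0.555).

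Genes that make and process histone mRNA were called in both directions, 4 of 28 tested higher and 1 lower. The 5 calls of 28 stand beside 16.8% called among all genes tested (8.27% higher and 8.56% lower), and the median log2 fold change was 0.09, or 0.03 with the length correction. *Npat*, the coactivator of histone gene transcription, rose by 0.48 (SE 0.08, adjusted p = 0.0123, edgeR), from 30.7 to 43.0 CPM. *Casp8ap2* (FLASH), needed with *Lsm11* to cut the histone pre-mRNA, rose by 0.59 (SE 0.10, adjusted p = 0.0133), from 21.6 to 32.5 CPM. The 3′ processing factor *Cstf2t* (log2 fold change 0.32) and the exonuclease *Xrn1* (0.30) also rose, and *Cpsf4* fell by 0.31. *Slbp* had a log2 fold change of 0.11 (SE 0.07, adjusted p = 0.313), *Lsm10* one of -0.23 (adjusted p = 0.288), *Lsm11* one of 0.05 (adjusted p = 0.851) and *Zfp473* one of 0.90 (SE 0.41, adjusted p = 0.177). With the length correction *Casp8ap2*, at 0.38, was the 1 gene of this list called (adjusted p = 0.0465). With the same correction *Npat* went to 0.30 (adjusted p = 0.0598), *Xrn1* to 0.03 (adjusted p = 0.808), *Cstf2t* to 0.26 (adjusted p = 0.0644) and *Cpsf4* to -0.22 (adjusted p = 0.0631). With the length and GC correction no gene of the list was called.

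Of the 26 histone chaperones and enzymes that acetylate new histones, 5 were called higher and 1 lower, beside 8.27% and 8.56% of all genes tested, with a median of 0.12. *Atrx* (0.41), the MCM subunit and H3-H4 chaperone *Mcm2* (0.36), the H3-H4 chaperone *Nasp* (0.33) and *Npm1* (0.28) rose, and *Supt16*, a subunit of the FACT complex, fell by 0.45 (SE 0.07, adjusted p = 0.0127). With the length correction 4 were called higher and 1 lower, with a median of 0.13, and with length and GC 2 higher and 1 lower. With length alone the calls of *Atrx* (0.14, adjusted p = 0.217) and *Mcm2* (0.33, adjusted p = 0.0530) were lost. Of the 42 genes of DNA replication and S phase, 11 were called higher and none lower, beside the same shares of all genes tested, with 16 higher and 2 lower at an unadjusted p under 0.05 and 5 called by DESeq2, and the median was 0.16. *Ccne2* (cyclin E2) rose by 1.49 (SE 0.21, adjusted p = 0.00920), the licensing factors *Cdc6* by 0.79 (SE 0.17, adjusted p = 0.0234) and *Orc1* by 0.77 (SE 0.17, adjusted p = 0.0282), and the helicase subunits *Mcm4* by 0.60 (SE 0.07, adjusted p = 0.00751) and *Mcm6* by 0.47 (SE 0.08, adjusted p = 0.0129). With the length correction 10 of the S phase genes were called, and with length and GC 9. *Pcna* had a log2 fold change of 0.10 (adjusted p = 0.287), which with the length correction was 0.25 (adjusted p = 0.0396). None of the 25 genes of G2 and mitosis was called by edgeR or DESeq2, with 4 higher and none lower at an unadjusted p under 0.05 and a median of 0.10, and *Mki67* had 0.43 (SE 0.17, adjusted p = 0.133). No gene of these lists was called without NC replicate 2, when no gene of the table was.

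**Figure D5:**
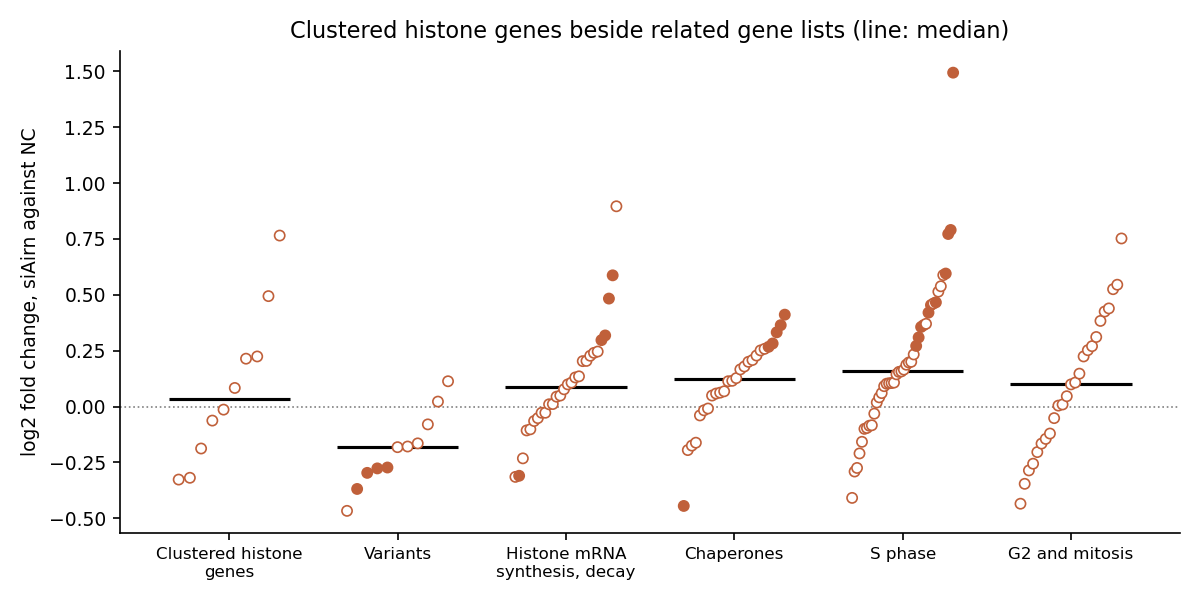
Log2 fold change, libraries labelled si*Airn* against NC, of the clustered histone genes tested and of 5 related gene lists (each point a gene, filled at an adjusted p under 0.05, the line the median). *Hist2h2aa2*, at 6.53, is left out, and the other 10 clustered genes have a median of 0.03 with none filled, beside -0.18 in the variants and 0.16 in the S phase genes.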

How the data were processed

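RNA of 2 NC and 2 si*Airn* cultures of primary LSEC was sequenced as single reads of 50 bases on the BGISEQ-500. The authors deposited 1 table with estimated counts and FPKM values per gene and library. The submitters' processing notes name Bowtie2, BWA and RSEM, without versions, and the human build hg19 for these mouse samples. The strandedness of counting and the annotation are not given in the sources used here. The unit of the second set of columns is not in the header, and it was read as FPKM because it scales with count, length and library total. The group means the authors added were not used.

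Estimated counts were rounded and analysed with edgeR 4.0.16 in R 4.3.3, with TMM factors (0.985 to 1.02), filterByExpr and the quasi-likelihood test without covariates. Adjusted p-values are those of Benjamini and Hochberg over all 13628 genes that passed the filter. The SE is that implied by the F statistic. Intervals of fold changes are 95% intervals from this SE. CPM values use the TMM factors. Sums, shared windows of 50 bases, stem-loops and promoter letters were computed from the table, GENCODE M21 and RefSeq. The length correction used a natural spline with 5 degrees of freedom of the length implied by counts and FPKM. Scripts were tested on simulated counts.

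The genes, the gene lists and the tests were chosen with earlier results of these data known. Genes were named by rule: every clustered histone gene called, the 3 of highest mean CPM in each type and the one that moved most when a library was left out, histone variants with a mean of at least 5 CPM, *Slbp*, *Npat*, *Casp8ap2*, *Lsm10*, *Lsm11*, *Zfp473* and the largest called changes of the other lists, *Pcna*, *Mki67*, *Airn*, *Ezh2* and *Klf2*. The remaining histone genes tested and those in pairs of similar copies were named after their values were seen. Cell type lists are given as sums or as counts of calls. Of the 11 lymphocyte markers, 4 were tested and none was called, beside 16.8% of all genes tested. Of 13 pan-endothelial markers 8 were called lower, beside 8.56% of all genes tested. With the length correction 6 of them were called lower, and with length and GC 4.

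The alternatives were DESeq2 1.42.0, upper-quartile normalization, the likelihood-ratio test of edgeR, a filter of 1 count in any or of 10 counts in all libraries, limma 3.58.1 on log2(FPKM + 1) and log2(FPKM + 0.1), a replicate block, corrections for length and for length with GC content, and leaving out each library.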

Additional observations from a re-analysis of the deposited data

How the results depend on the processing

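The number of genes called among all tested was 2294. It became 4841 with the replicate block, 1295 with the length correction, 876 with the length and GC correction and 1358 by a fold change over 1.4 with an unadjusted p under 0.05, and ranged from 0 to 2410 when 1 library was left out. The number of clustered histone genes called was 1. It was 2 with the replicate block (*Hist2h2aa2* and *Hist1h2bc*), and 0 with DESeq2, with a minimum of 10 counts in every library and with limma on either scale, fits that gave *Hist2h2aa2* no adjusted p or left it out as too low and so could not call it. It was also 0 with pairs of similar genes summed (chosen after seeing the data), and, as a range, 0 to 0 when 1 library was left out. The labels give the replicates the same numbers but no shared mouse or day. The deviations of NC 1 and si*Airn* 1 from their group means correlated at 0.233 across genes, with only 2 pairs, so the block rests on a shared number.

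Summed by type, the log2 ratio of si*Airn* to NC was 0.10 for H1 and 0.23 in FPKM, and -0.12 for H2A, -0.082 without TMM factors and -0.077 in FPKM. By cluster it was 0.16 for Hist1 and 0.25 in FPKM, and -0.32 for Hist3 and -0.26 in FPKM. Leaving out 1 library gave 0.048 to 0.15 for H1, -0.15 to -0.086 for H2A, 0.029 to 0.37 for H2B, -0.16 to 0.50 for H3, -0.06 to 0.65 for H4, 0.072 to 0.24 for Hist1 and 0.018 to 0.17 for all 53 genes, whose lowest value, like that of H2B, was the one without si*Airn* replicate 2.

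Of single genes, *Hist2h2aa1* turned to 0.13 with the length correction, 0.25 with length and GC, and 0.035 with pairs summed, and *Hist1h4i* to 0.03 and 0.04 with limma (pseudocounts 1 and 0.1), 0.17 with length and 0.21 with length and GC. When 1 library was left out, the log2 fold change ranged from -0.19 to 0.071 for *Hist2h2aa1*, -0.67 to 0.58 for *Hist1h4i*, -0.62 to 0.14 for *Hist1h2be*, -0.041 to 0.94 for *Hist1h2bk*, -0.97 to 0.58 for *Hist1h2bq*, -0.036 to 0.43 for *Hist2h2be* and -0.19 to 6.25 for *Hist2h3c2*. The causes were not tested. The 6.25 of *Hist2h3c2* depends on the prior count, since the remaining NC library was at 0. *Hist3h2a* stayed below 0 (-0.38 to -0.14, adjusted p 0.0655 to 0.557) and *Hist1h1c* above 0 (0.03 to 0.29, adjusted p 0.108 to 0.909) in 14 alternatives each. Fits without a library leave 1 in its group, which is assumed to vary like the other group. The genes took under 0.01% of each library, and 39 of them never reached 10 counts, which limits what their values can show.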
